A study of Oryza sativa with 6 samples.

Results

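In flag leaves of rice plants with a disrupted OsSLAC7 gene, 84 of 17905 measured genes showed a low level in wild type leaves and a level that was higher on every mutant array. The rule asked for a mean under 5 over the 3 wild type arrays, a mutant mean at least 1.5 higher, and a lowest mutant value above the highest wild type value, all on the log2 scale of the deposited expression values. A difference of 1.5 on that scale is 2.83-fold or more. Each gene is represented by the brightest of its probe sets that met the rule, where a probe set is the group of short probes that together read one transcript. A further 7 genes met the same thresholds and were left out by name: Cht4, GLT2, LEA19, RAB16B, IAA20, MADS7 and MADS24. The values that chose the 84 genes are the same values described here, so the difference between mutant and wild type is a description for them and was not tested.

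The 6 samples were 3 mutant and 3 wild type samples of flag leaves, the leaf just below the panicle, all of the japonica cultivar Zhonghua11. The mutant is a line with T-DNA, the DNA that Agrobacterium moves into plant genomes, inserted in OsSLAC7 (Os01g0385400), and all plants were untreated, starting in a greenhouse and later growing in the field. The labels call the samples of each group biological replicates and do not say whether each came from a separate plant, nor how many independent insertion lines were used. The array's annotation held no probe set named for OsSLAC7, so the disrupted gene itself was not analysed here.

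SLAC proteins are anion channels named after SLAC1 of Arabidopsis, which lets anions out of guard cells when stomata close. A flag leaf is a mature organ that supplies the panicle with sugar, and many genes of meristems, growing walls and germinating seed are normally quiet in it. A microarray measures hybridisation signal that never reaches zero, so a gene that is off and a gene that is weakly expressed both give a low level. "Switched on" is therefore a name for the rule, not a statement that transcripts were absent in wild type leaves. In a whole leaf sample, more cells that express a gene and more RNA per cell cannot be told apart.

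The genes switched on form the upper left edge of the plot of mutant against wild type levels. Of all 22436 probe sets assigned to a single gene, 29.9% had the 3 mutant values above the 3 wild type values, and 19.2% of the 6893 with a wild type mean under 5 did. The 3 thresholds together were met by 1.39% of those 6893 probe sets and by 0.508% of all genes. The median difference of the 84 genes was 1.77, and that of all genes was 0.10. Most lay close to the threshold: 60 differed by less than 2, 18 by 2 to 3, 3 by 3 to 4 and 3 by more than 4. The lowest mutant value lay above the highest wild type value by 0.67 (LOC4348568) to 4.74 (LOC4335526), with a median gap of 1.33. In 81 of the 84 genes that gap was wider than the range of the wild type values.

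**Figure D1:**
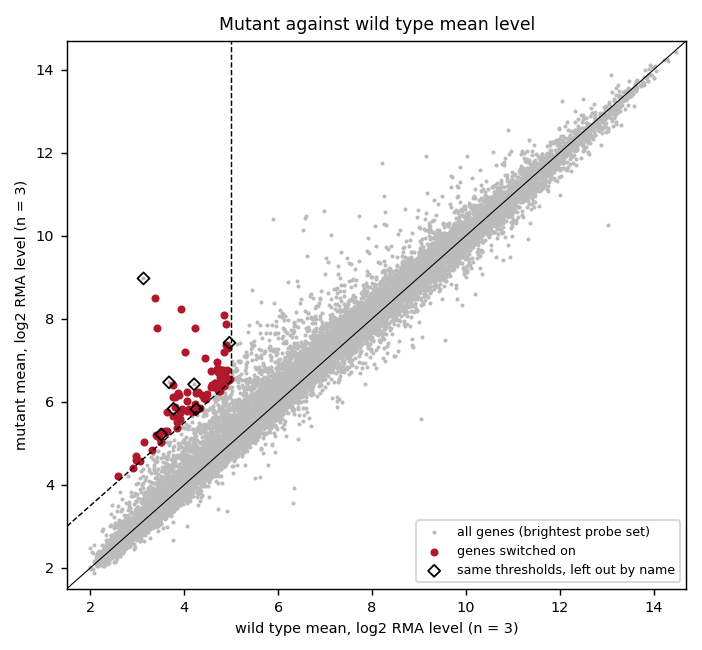
Mean log2 RMA level of each gene over 3 mutant arrays (vertical axis) against its mean over 3 wild type arrays (horizontal axis). Grey points are all genes by their brightest probe set, red points the 84 genes switched on, open diamonds the 7 genes left out by name, and the dashed lines mark the thresholds of 5 and 1.5. Most red points lie just above the dashed slope, and a few reach a mutant mean near 8.

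The largest difference belonged to LOC4335526, a gene with no name beyond its identifier in the reference table. It stood at 8.59, 8.31 and 8.61 on the mutant arrays, against 3.37, 3.58 and 3.15 on the wild type arrays. The means were 8.50 ± 0.16 in mutant and 3.37 ± 0.21 in wild type leaves (SD, n = 3 each), a difference of 5.14 (SE 0.14). Every SE in this text is the moderated one of a limma fit, which draws each variance towards that of all probe sets. For genes with a wide spread it can be smaller than the printed SDs alone would give. Its wild type mean lies within the levels of the array's reporter probe sets, which are assigned to no rice gene, so no fold is given. This was the highest mutant level of all 84 genes.

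LOC4352244 had 8.12, 7.51 and 7.74 in mutant leaves, against 3.70, 2.94 and 3.59 in wild type leaves. The difference was 4.38 (SE 0.22), again from a wild type level within those of the reporters. LOC4347252 stood at 8.22, 8.23 and 8.29 in mutant leaves, against 3.91, 3.59 and 4.32 in wild type leaves, a difference of 4.31 (SE 0.17). Its mutant values were the tightest of the 84 genes, with an SD of 0.04, while the wild type SD was 0.37. In all 3 of these genes the closest mutant and wild type values were more than 3 units apart.

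LOC4334644 followed with 7.73, 7.97 and 7.63 in mutant leaves, against 3.66, 4.51 and 4.49 in wild type leaves (difference 3.56, SE 0.22). LOC4324350 had 8.39, 8.01 and 7.89 in mutant leaves, against 4.63, 5.06 and 4.85 in wild type leaves (difference 3.25, SE 0.16). LOC4328841 differed by 3.19 and LOC4344895 by 2.996. The values of LOC4344895 were 7.95, 7.83 and 7.84 in mutant leaves, against 4.73, 4.78 and 5.14 in wild type leaves. The groups stayed more than 2 units apart in each of these genes, and the wild type means of LOC4324350 and LOC4344895 lay near the limit of 5.

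The rest of the 20 largest differences ran from 2.64 to 2.12. They comprised LOC4327070, LOC4327631 (2.63), LOC4332833 (2.49), LOC4352177 (2.38), LOC9270605 (2.35), LOC4324640 (2.35), LOC4332407 (2.33), LOC4341249 (2.33), LOC4330624 (2.27), LOC4343033 (2.27), LOC4352286 (2.19), Pi21 (2.18) and OSH1 (2.12). By mutant level the 10 brightest genes ran from 8.50 for LOC4335526 and 8.25 for LOC4347252 to 7.20 for LOC4324640. All 10 were among the 13 largest differences. LOC4339944 lay at the other end, with the lowest level in both groups: 4.42, 4.17 and 4.06 in mutant leaves, against 2.53, 2.66 and 2.55 in wild type leaves.

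The plot of levels on each array shows these genes from the largest to the smallest difference. In the upper rows the groups are far apart, and down the list the distance narrows to the threshold. At the threshold, the genes just inside were LOC4331855 (1.53), LOC4348568 (1.52), LOC4340844 (1.51), LOC4341509 (1.502) and LOC4343837 (1.502). The probe sets just outside belonged to LOC4341835 (1.496, at 6.19 in mutant and 4.69 in wild type leaves), LOC4328562 (1.49), LOC4343883 (1.49), LOC4348151 (1.49) and LOC9266709 (1.49). Likewise LOC4334657 was the last gene inside the limit on the wild type level, at 4.98, while LOC4326175 at 5.02 fell outside with a difference of 1.66. Without a limit on the wild type level, 137 genes had a probe set with a wild type mean of 5 or more, the same difference and separated groups.

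**Figure D2:**
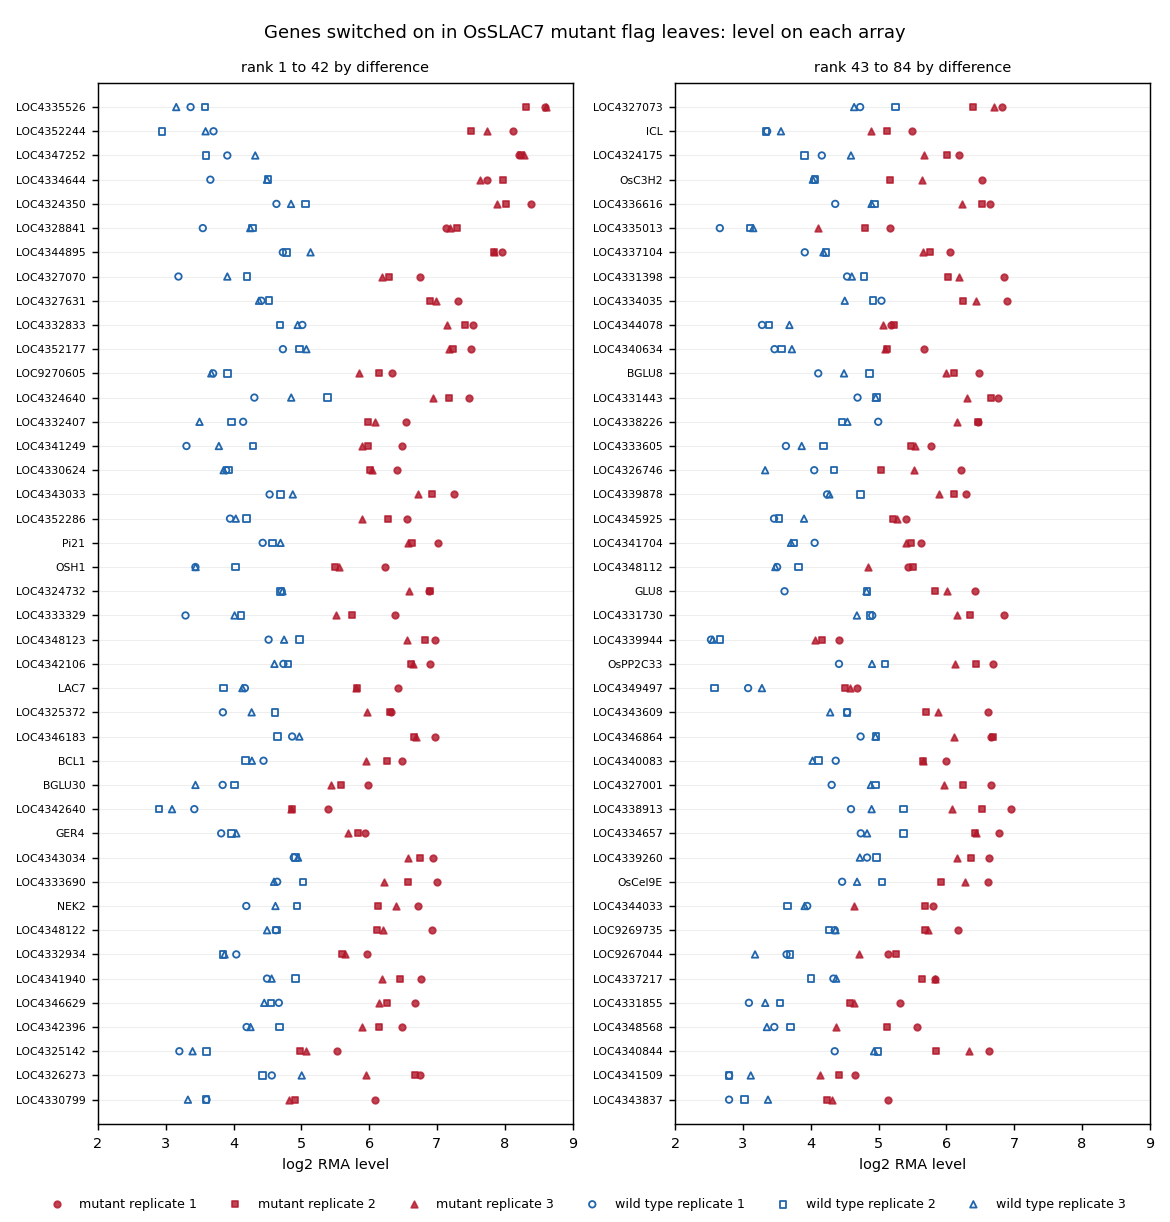
Log2 RMA level of each of the 84 genes on each array, ordered by the difference of the group means. Filled red symbols are the 3 mutant arrays and open blue symbols the 3 wild type arrays, with a circle, square and triangle for replicates 1, 2 and 3. No mutant symbol lies left of a wild type symbol in the same row, as the rule requires, and the mutant circle is the rightmost symbol in 74 rows.

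Reporter probe sets give a scale for the low levels. The array carries 64 probe sets whose identifiers mark them as reporters and which are assigned to no rice gene. Of the reporters 6.25% had their groups separated with the mutant higher. Their mean level in wild type leaves had a median of 3.08, an upper quartile of 3.95 and a maximum of 5.83, and 59 of the 64 lay under 5. The limit of 5 in the rule places the wild type means of all 84 genes switched on below that maximum. Of these means 33 lay below the upper quartile, which the rule does not require. In mutant leaves all 84 lay above the upper quartile of the reporters on each of the 3 arrays. On each of the 3 mutant arrays 58 genes exceeded every reporter, while 10 exceeded the highest reporter on none of them. Only 9 of the 84 exceeded the median of all single-gene probe sets on every mutant array. Among the reporters, 1 met all 3 thresholds itself and is described with the other unassigned probe sets.

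**Figure D3:**
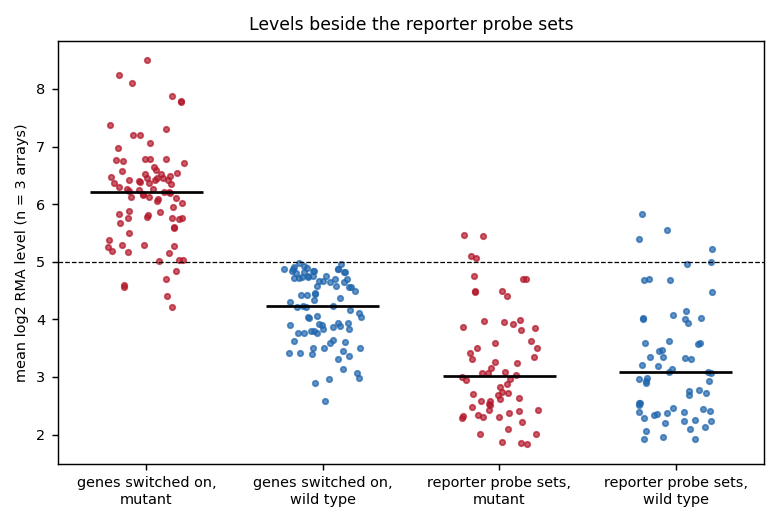
Mean log2 RMA level over 3 arrays (vertical axis) of the 84 genes switched on and of the 64 reporter probe sets, in mutant (red) and wild type leaves (blue). Each point is 1 gene or probe set, black bars are medians, and the dashed line is the wild type limit of 5. The medians of the genes were 6.22 in mutant and 4.24 in wild type leaves, and those of the reporters 3.02 in mutant and 3.08 in wild type leaves.

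Only 13 of the 84 genes have a name in the reference table, and the other 71 are known by an identifier alone. OSH1 encodes a homeodomain factor of the KNOX class, which keeps cells of the shoot meristem undifferentiated and is normally silent in leaves. OSH1 stood at 6.23, 5.49 and 5.56 in mutant leaves, against 3.44, 4.03 and 3.44 in wild type leaves. The means were 5.76 ± 0.41 in mutant and 3.63 ± 0.34 in wild type leaves (SD, n = 3 each), a difference of 2.12 (SE 0.22). The second OSH1 probe set was brighter and differed by 1.47, with 6.60 in mutant and 5.13 in wild type leaves.

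Several of the named genes encode enzymes that act on cell walls or glycosides. GLU8 and OsCel9E are endoglucanases, which cut the glucan chains of the wall. GLU8 had 6.42, 5.83 and 6.01 in mutant leaves, against 3.61, 4.83 and 4.82 in wild type leaves (difference 1.66, SE 0.31). Its first wild type value stood more than 1 unit below the other wild type values. OsCel9E had 6.62, 5.92 and 6.28 in mutant leaves, against 4.46, 5.05 and 4.68 in wild type leaves (difference 1.54, SE 0.20). LAC7 is a laccase, a copper enzyme of a family that couples lignin monomers. It had 6.43, 5.83 and 5.81 in mutant leaves, against 4.17, 3.85 and 4.13 in wild type leaves, a difference of 1.97 (SE 0.18). The β-glucosidases BGLU30 and BGLU8, which release glucose from glycosides, differed by 1.90 and 1.71. BGLU30 had 5.98, 5.59 and 5.43 in mutant leaves, against 3.84, 4.01 and 3.44 in wild type leaves. BGLU8 had 6.48, 6.11 and 5.99 in mutant leaves, against 4.11, 4.87 and 4.49 in wild type leaves. GER4, of the germins, a family of proteins secreted to the wall, differed by 1.88 (SE 0.11). Its values lay close together, at 5.94, 5.83 and 5.68 in mutant leaves, against 3.82, 3.97 and 4.04 in wild type leaves.

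ICL, isocitrate lyase, is one of the key enzymes of the glyoxylate cycle, which turns the products of fatty acid breakdown into precursors of sugar in germinating seeds and ageing leaves. ICL had 5.50, 5.13 and 4.89 in mutant leaves, against 3.36, 3.34 and 3.56 in wild type leaves, a difference of 1.75 (SE 0.15). Its partner enzyme malate synthase, MS, stands above the wild type limit of the rule. MS had 8.97, 8.87 and 8.80 in mutant leaves, against 6.36, 6.21 and 6.08 in wild type leaves. The difference was 2.67 (SE 0.11), past the threshold of the limma test over all probe sets (adjusted p = 4.49e-06).

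The other named genes act in signalling, transcription and defence. Pi21 encodes a proline-rich protein, and rice plants that have lost its function are more resistant to blast fungus. Pi21 had 7.02, 6.63 and 6.58 in mutant leaves, against 4.43, 4.57 and 4.69 in wild type leaves (difference 2.18, SE 0.14). A second probe set for Pi21 stood at 6.72 in mutant and 6.48 in wild type leaves and did not separate the groups. BCL1, a basic helix-loop-helix factor, had 6.49, 6.26 and 5.95 in mutant leaves, against 4.44, 4.17 and 4.27 in wild type leaves (difference 1.94, SE 0.15). NEK2, of the NIMA-related kinases known for roles in cell division and microtubules, had 6.72, 6.13 and 6.40 in mutant leaves, against 4.19, 4.93 and 4.62 in wild type leaves (difference 1.84, SE 0.21).

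OsPP2C33, a protein phosphatase of the PP2C family, had 6.68, 6.43 and 6.13 in mutant leaves, against 4.42, 5.09 and 4.90 in wild type leaves (difference 1.61, SE 0.19). OsC3H2, also called OsDOS, is a CCCH zinc finger protein described as a delayer of leaf senescence in rice. It had the widest range over mutant arrays of all 84 genes, with 6.52, 5.17 and 5.65 in mutant leaves, against 4.05, 4.06 and 4.03 in wild type leaves. A brighter probe set for OsC3H2 stood at 10.7 in mutant and 9.68 in wild type leaves. By that probe set OsC3H2 lay above every reporter in both groups.

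The named genes have relatives on the array that were screened by the same rule and did not meet it. Families were collected by name after the members were known, except that ICL and its pathway partner MS are counted as a family. The counts leave out the genes switched on, so they are not independent of the rule. Over all 17905 genes, read through their brightest probe sets, 13.8% passed the limma threshold (adjusted p under 0.05) upward and 3.46% downward. Of 164 relatives in 9 families 27 passed upward and 2 downward, or 16.5% and 1.22%. The share upward was close to that of all genes.

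**Figure D4:**
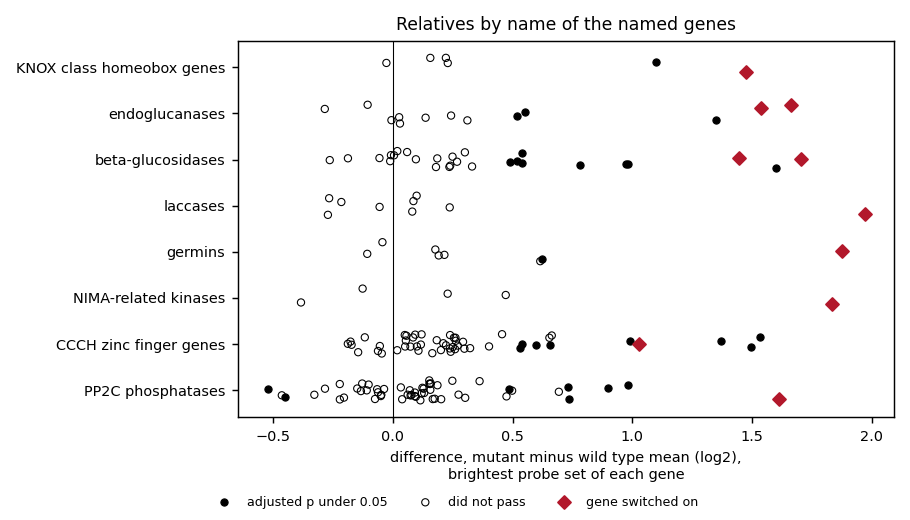
Difference of mutant minus wild type mean (log2 scale, brightest probe set of each gene) for the families of the named genes, without the pair of ICL and MS. Red diamonds are the genes switched on, filled circles relatives with a limma adjusted p under 0.05, and open circles relatives that did not pass. The laccase and the NIMA-related kinase rows hold no filled circle, while β-glucosidases and CCCH zinc finger genes hold 8 each.

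Among the β-glucosidases, 8 of 25 relatives rose and none fell, where 13.8% of all genes passed upward and 3.46% downward. BGLU26 rose by 1.60 (SE 0.20), with 7.68, 6.80 and 7.23 in mutant leaves, against 5.76, 5.66 and 5.49 in wild type leaves. BGLU6 rose by 0.98, BGLU12 by 0.97 and BGLU20 by 0.78. The means of BGLU6, 5.01 in mutant and 4.02 in wild type leaves, lay below the highest reporter mean in both groups. Among the endoglucanases, 3 of 11 relatives rose, GLU13 by 1.35, GLU2 by 0.55 and GLU1 by 0.52, and none fell. None of 8 other laccases passed the limma test in either direction, and 1 of them, LAC19, had an unadjusted p under 0.05 (difference -0.27).

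Of the 5 KNOX relatives, OSH71 rose by 1.10 (SE 0.24, limma adjusted p = 0.0236). OSH71 had 4.97, 3.87 and 4.20 in mutant leaves, against 3.17, 3.20 and 3.37 in wild type leaves. Its means lay below the highest reporter mean in both groups (5.47 in mutant and 5.83 in wild type leaves). OSH3, OSH6, OSH43 and OSH45 differed by -0.03 to 0.23 and did not pass. Of 7 germins GER1 rose by 0.62, at levels of 2.88 in mutant and 2.25 in wild type leaves that lie under the upper quartile of the reporters. None of 4 NIMA-related kinases passed the limma test, while NEK1 (0.47) and NEK4 (-0.38) had an unadjusted p under 0.05. For scale, 13.8% of all genes passed upward and 3.46% downward. Of 49 CCCH zinc finger genes 8 rose and none fell, led by OsC3H35 (1.53), OsC3H37 (1.497) and OsC3H54 (1.37). Of 54 PP2C phosphatases 5 rose and 2 fell. The 5 were OsPP2C08 (0.98), OsPP2C68 (0.90), OsPP2C06 (0.73), OsPP2C30 (0.73) and OsPP2C09 (0.48), and the falls were OsPP2C78 (-0.52) and OsPP2C01 (-0.45). All 5 that rose are counted again below among the genes of the dehydration and abscisic acid response.

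Other probe sets of the same genes give a second reading of the transcripts from the same arrays. Of the 84 genes, 52 had 1 single-gene probe set and 32 had more, with 49 further probe sets between them. Of these 49, 19 differed by 1 or more, 2 by 0.5 to 1 and 28 by less than 0.5 in either direction. For 18 genes at least 1 further probe set differed by 1 or more, and for 14 every further probe set differed by less than 0.5. Both readings come from the contrast that chose the genes, so they are given as a description.

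In 18 genes a brighter probe set existed that did not meet the rule. Among these brighter probe sets 10 differed by 1 or more and 7 by less than 0.5. LOC4343609 and LOC4340083 were higher still by their brighter probe sets. The brighter one of LOC4343609 stood at 7.68 in mutant and 5.35 in wild type leaves (difference 2.33). That of LOC4340083 stood at 7.85 in mutant and 5.76 in wild type leaves (difference 2.09). LOC4334035, like OsC3H2, was bright in both groups by its brighter probe set, with 10.9 in mutant and 9.81 in wild type leaves (difference 1.12).

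Other genes gave readings that go against the name of the group. LOC4333690 was chosen by a probe set at 6.60 in mutant and 4.75 in wild type leaves. Its brightest probe set stood at 13.7 in mutant and 13.5 in wild type leaves. LOC9267044 read 7.95 in mutant and 8.02 in wild type leaves by its brightest probe set, and LOC4335013 read 8.95 in mutant and 8.68 in wild type leaves. For LOC4328841 2 probe sets met the rule, with differences of 3.19 and 2.74, while its brightest probe set stood at 7.05 in mutant and 6.77 in wild type leaves. With the brightest probe set of each gene taken first, 66 of the 84 genes met the rule. The gene named for a probe set comes from an annotation that can be old, and whether such pairs read 1 gene or several was not tested. Of the 84 probe sets 18, or 21.4%, end in _x_at or _s_at and can bind related transcripts, against 14.1% of all single-gene probe sets.

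**Figure D5:**
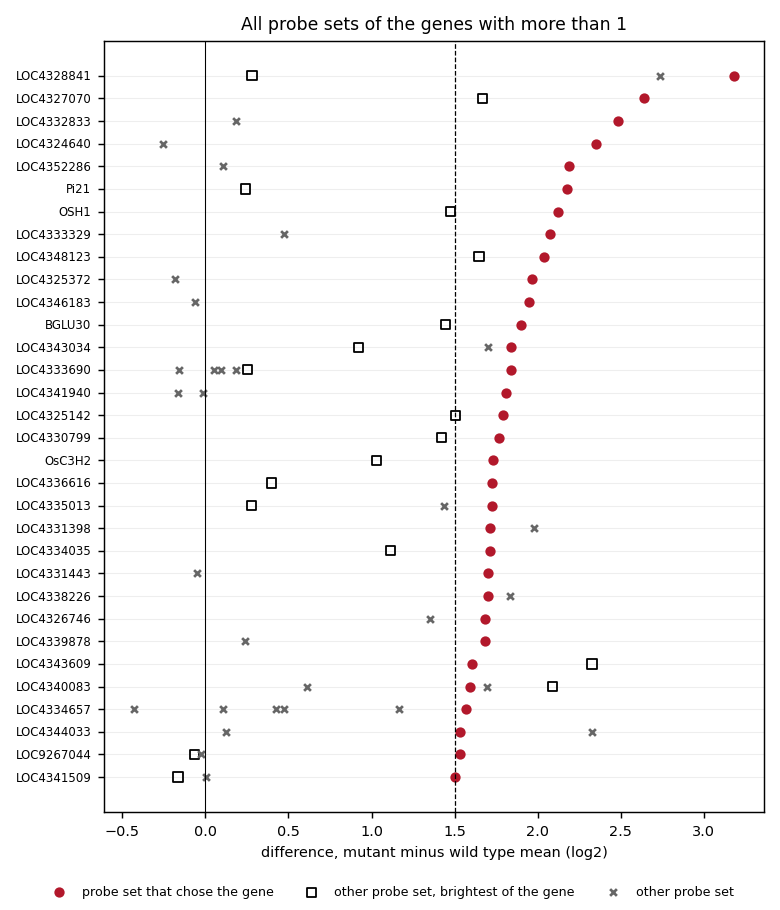
Difference of mutant minus wild type mean (log2 scale) for every single-gene probe set of the 32 genes that have more than 1. Red circles are the probe sets that chose the gene, open squares the brightest probe set of the gene where it is another one, and crosses the remaining probe sets, with the dashed line at 1.5. Squares and crosses are spread from -0.43 to 2.74, with a cluster near 0.

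The 3 mutant arrays did not read these genes alike. Mutant replicate 1 held the highest value for 74 of the 84 genes, mutant replicate 2 for 8 and mutant replicate 3 for 2. Mutant replicate 3 held the lowest value for 52. The mean over the 84 genes was 6.46, 6.09 and 5.97 on the mutant arrays, against 4.07, 4.28 and 4.19 on the wild type arrays. Mutant replicate 1 was also the highest mutant array for 55.5% of all single-gene probe sets. It was so for 66.6% of the 1221 other probe sets with a wild type mean under 5 and separated groups.

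For the median gene switched on, mutant replicate 1 stood 0.42 above the mean of the other mutant arrays. For all single-gene probe sets this excess was 0.10, and for the reporters -0.11. Mutant replicate 1 had the lowest correlations with the other mutant arrays (0.992 and 0.994) and an array weight of 0.441 in limma, the lowest of the 6 arrays. The part of this array in the choice of genes can be measured by leaving it out: 63 of the 84 genes met the rule on the remaining 5 arrays, and no other gene did. Among the genes with a name, GLU8, OsCel9E, OsC3H2 and OsPP2C33 then fell short of the difference of 1.5. Leaving out any other single array gave 78 to 102 genes, of which 71 to 82 were among the 84.

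Beside OsC3H2, the genes with the widest ranges over the mutant arrays were LOC4330799, LOC4348568, LOC4326746, LOC4344033, LOC4335013, LOC4343609, LOC4343837, LOC4333329 and LOC4338913. LOC4330799 had 6.09, 4.90 and 4.82 in mutant leaves, against 3.60, 3.59 and 3.33 in wild type leaves, with replicate 1 more than 1 unit above the other mutant arrays. LOC4344033 had 5.80, 5.69 and 4.64 in mutant leaves, against 3.95, 3.66 and 3.91 in wild type leaves, and its low value came from replicate 3. LOC4326746 had 6.21, 5.04 and 5.53 in mutant leaves, against 4.05, 4.34 and 3.33 in wild type leaves. In these 3 genes the range within the mutant group was over 1 unit. That the groups did not overlap is what the rule requires.

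Gene order in the reference assembly placed a few of the 84 genes beside each other. LOC4343033 and LOC4343034 are adjacent protein-coding genes, as are LOC4348122 and LOC4348123. LOC4343033 had 7.25, 6.93 and 6.72 in mutant leaves, against 4.53, 4.69 and 4.87 in wild type leaves, and LOC4343034 had 6.95, 6.75 and 6.58 in mutant leaves, against 4.89, 4.91 and 4.95 in wild type leaves. LOC4348122 had 6.93, 6.11 and 6.20 in mutant leaves, against 4.62, 4.63 and 4.49 in wild type leaves. LOC4348123 had 6.97, 6.82 and 6.55 in mutant leaves, against 4.52, 4.97 and 4.75 in wild type leaves. Within each pair the differences were 2.27 and 1.84, and 1.83 and 2.04. By their brightest probe sets LOC4343034 differed by 0.92, with 6.40 in mutant and 5.48 in wild type leaves, and LOC4348123 by 1.65, with 6.75 in mutant and 5.10 in wild type leaves. Whether adjacent genes of a pair share probe matches was not tested, and the probe sets of LOC4343033 and LOC4343034 end in _s_at and _x_at.

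In addition LOC4325372 and LOC9270605 were separated by 1 gene, which differed by 0.76. LOC4327070 and LOC4327073 had 3 genes between them, as had LOC4331855 and LOC9269735. The 101 other measured genes directly beside one of the 84 had a median difference of 0.11, close to the 0.10 of all genes. Of these neighbours 35.6% had separated groups with the mutant higher, against 32.2% of all genes by their brightest probe sets. The largest of these differences was that of LOC4334643, next to LOC4334644, at 8.41 in mutant and 5.64 in wild type leaves (difference 2.76).

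Markers of other organs and cell states were read in the same limma fit, since a leaf sample can hold more than mature blade cells, and their part in the levels of the 84 genes was not tested. In that fit 13.8% of all genes were called upward and 3.46% downward. Of 21 panicle and flower organ markers 7 rose and none fell, among them the floral MADS genes MADS7 (1.71), MADS24 (1.57), MADS5 (1.40), MADS6 (1.04) and MADS2 (1.02). MADS7 and MADS24 are among the genes that met the rule and were left out by name. The means of MADS7 and MADS5 lay below the highest reporter mean in both groups. The mean level of the panicle and flower list ran from 5.73 to 5.89 on the mutant arrays and from 5.41 to 5.44 on the wild type arrays, and 6 of the 21 lay under the upper quartile of the reporters. Of 12 anther, tapetum and pollen markers 3 rose and none fell. OsC4 rose by 1.30, at 4.97 in mutant and 3.67 in wild type leaves, below the highest reporter mean in both groups. CYP703A3 rose by 0.60, at levels under the upper quartile of the reporters (3.03 in mutant and 2.43 in wild type leaves). The third call was LOC4327535 (0.46), which entered the list through the synonym OsCP1 and is also listed as a cystatin. The anther list averaged 5.19 to 5.29 on mutant and 5.08 to 5.11 on wild type arrays, with 5 of 12 under that quartile.

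Of 17 markers of dividing cells 4 rose and none fell: CYCB2 (LOC4342121, 1.37), CYCB1-1 (LOC4327547, 1.34), CDC2Os-3 (0.74) and MCM2 (0.64). Over all genes 13.8% passed upward and 3.46% downward. The namesakes of the cyclins in the list, CYCB2 (LOC4336670, 0.49) and CycB1-1 (LOC4326914, -0.10), did not pass. Of the genes that rose, CYCB2 (LOC4342121), CDC2Os-3 and MCM2 had means below the highest reporter mean in both groups. That list averaged 4.40 to 4.71 on mutant and 4.13 to 4.17 on wild type arrays, and 7 of the 17 lay under the reporters' upper quartile. None of 11 seed storage and oil body genes passed the limma test, while RA5 (-0.47) and GLUA-2 (-0.23) had an unadjusted p under 0.05. They averaged 4.38 to 4.49 on mutant and 4.57 to 4.59 on wild type arrays, with 6 of 11 under that quartile. Of 15 genes of the dehydration and abscisic acid response 12 rose and none fell, among them RAB21 (2.89), LEA19 (2.46), RAB16B (2.21) and EM (1.40). LEA19 and RAB16B also met the rule and were left out by name. The 12 include the PP2C phosphatases named above as rising. The mean of the dehydration list ran from 7.92 to 8.12 on mutant and from 6.96 to 7.06 on wild type arrays.

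Of 16 root markers IRT1 rose (0.95) and NAS2 (-0.75) and NRT2.2 (-0.55) fell, with list means of 4.91 to 4.96 on mutant and 4.93 to 5.12 on wild type arrays. Beside this list and the next ones, 13.8% of all genes passed upward and 3.46% downward. Of 11 genes of leaf photosynthesis and photorespiration GLO3 rose (0.81) and PSB28 (-0.56), GDCSH (-0.48) and NDH-M (-0.47) fell. GLO3 and GDCSH belong to photorespiration. These 11 genes averaged 11.3 to 11.4 on mutant and 11.4 to 11.5 on wild type arrays, the highest of the 8 marker lists in both groups. Of 11 pathogenesis-related genes chia4a (2.90) and Chia1d (0.58) rose and Cht2 (-0.66) fell. Cht4 (5.84), which met the rule and was left out by name, is not in this list. That list averaged 8.60 to 8.70 on mutant and 8.40 on each wild type array.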

How the data were processed

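Total RNA of 3 mutant and 3 wild type flag leaf samples was hybridised to the Affymetrix Rice Genome Array. The values are log2 expression levels as deposited by the authors, made with RMA in affy per the submitters' processing notes (their versions are not given in the sources used here), and they were used without further scaling. Of 57381 probe sets, 123 AFFX controls were left out and 57258 entered 1 limma fit (limma 3.58.1, R 4.3.3) of mutant against wild type, with Benjamini-Hochberg adjustment over all of them. The platform annotation, which can be old, gave 22436 probe sets a single gene and 95 several. Their 17905 genes all matched the RefSeq table of assembly ASM3414082v1, which was used for names and gene order only. Genes at large were read through their brightest probe set.

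The members and lists were chosen with earlier results of these data known, and the families of relatives after the members were seen. Genes named are those with a RefSeq name, the 20 largest differences, the 10 highest mutant levels, the 10 widest mutant ranges, the 5 nearest on each side of the threshold, neighbours, and up to 4 genes per marker list by adjusted p. Other genes, such as those with informative further probe sets, were named after their values were seen. The fit was tested on simulated data. Counts were repeated under other scalings, priors, weights, filters, rule limits and with each array left out. Values were summarised with Python 3.11.15, pandas 2.3.3 and matplotlib 3.10.9. The number of arrays limits the precision, and p-values measure only the spread between these samples, which may be technical.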

Additional observations from a re-analysis of the deposited data

Results flagged for a closer look

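Among probe sets outside the gene comparison, 19 of 34822 without a single assigned gene met the same 3 thresholds as the 84 genes. Of these 11 had plain Os identifiers, 7 had OsAffx identifiers and 1 was a reporter. The largest difference among them was that of an OsAffx probe set with 7.15, 6.43 and 6.91 in mutant leaves, against 2.55, 2.35 and 2.59 in wild type leaves, a difference of 4.33. Its identifier shares a design number with the probe set of LOC4335526, the gene with the largest difference. A probe set with a plain Os identifier came next with 7.28, 7.45 and 6.95 in mutant leaves, against 2.76, 3.14 and 3.42 in wild type leaves. Its difference was 4.12. The reporter RPTR-Os-U43284-1_s_at had 5.34, 4.92 and 4.96 in mutant leaves, against 2.94, 3.16 and 3.29 in wild type leaves, a difference of 1.94 (SE 0.14). The next largest differences among the 64 reporters were 0.43 and 0.40, and 6.25% of the reporters had their groups separated with the mutant higher.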

How the results depend on the processing

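The number of genes switched on followed the limits of the rule. It was 37 with a wild type mean under 4 and 136 with one under 6, against 84. A difference of 1 or more gave 243 genes with a median difference of 1.33, and one of 2 or more gave 25 with a median of 2.35. With the brightest probe set of each gene first there were 66, with arrays centred on their medians 95, and without _x_at and _s_at probe sets 68. Leaving out 1 array gave 63 to 102 genes with medians of 1.74 to 1.82. The lowest difference among the 84 genes was 1.22 without mutant replicate 1, against 1.502 over all arrays. Over all genes limma called 2477 higher and 620 lower. Fitting 1 probe set per gene gave 3752 higher and 1131 lower, and an intensity trend with a robust prior gave 3609 higher and 1162 lower. Leaving out 1 array gave 1238 to 2294 higher and 230 to 583 lower; without wild type replicate 1, 2 or 3 these were 1544 and 299, 1394 and 230, and 1238 and 261, and without mutant replicate 3 the lower count was 323. Marker list members called upward numbered 30, and 22 to 26 without 1 wild type array or 27 without 1 mutant array. With the replicate number as a block 2448 were higher and 530 lower. Deviations of samples with the same number correlated at 0.15, 0.01 and 0.11, so the numbers were not taken to pair the samples. The cause of these shifts was not tested.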
